A study of Mus musculus with 55 samples.

Results

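The 10 circadian clock genes followed here were measured in the mouse dorsal hippocampus and were Per1, Per2, Per3, Dbp, Ciart, Nr1d1, Nr1d2, Arntl, Clock and Tef. They were taken by gene name from a table of 55487 genes, in a choice made with earlier results of these data known. All 10 were among the 16168 genes that passed the filter on low counts. RNA-seq counts came from 55 mice, each a separate animal, on a C57BL/6J background. Wild-type (WT) mice and mice with a knockout (KO) of Cnih3, an AMPA receptor auxiliary protein, were each sampled in metestrus, diestrus, proestrus and estrus and as males. Per the study, the KO line lacks exon 4 of Cnih3, which shifts the reading frame, and only some of the WT mice were littermates from the matings that gave the KO mice. Group sizes were 4 WT and 5 KO mice in metestrus, 6 and 6 in diestrus, 5 and 4 in proestrus, 7 and 6 in estrus, and 5 and 7 males. The labels give no treatment, and ages lay between 10.86 and 23.71 weeks. Per the study's methods, 1 researcher dissected the tissue in the afternoon from mice kept in a light and dark cycle, and the clock time of each dissection was not analysed here. The question was whether genes whose levels follow the time of day differed between the groups.

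The molecular clock is a loop in which CLOCK and BMAL1, the protein made from Arntl, bind E-box sequences and switch on the Per and Cry genes, whose proteins then block CLOCK and BMAL1. A companion loop runs through REV-ERB alpha and beta, the nuclear receptors made from Nr1d1 and Nr1d2, which repress Arntl. Dbp and Tef encode PAR bZIP activators that bind D-box sequences, and Ciart encodes CHRONO, a repressor of CLOCK and BMAL1. In the mouse brain outside the suprachiasmatic nucleus these genes also cycle through the day, with Arntl in opposite phase to Nr1d1 and Dbp, and Per1 can in addition be switched on acutely by neuronal activity.

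The promoters of 9 of the 10 genes were found in the RefSeq table (GRCm38.p6, 14 entries of 300 bases, 250 before to 50 after the annotated start). The letters were searched on both strands. The 5 entries printed here were chosen because they hold E-box, E'-box, D-box or REV-ERB element letters and because Ciart and Nr1d1, Per3 and Tef, and Arntl stood for 3 kinds of covariation between mice described further on. Each runs 5′ to 3′ on the strand of its gene, and capitals mark the matches.
Ciart (GRCm38.p6, chr3:95882179-95882478, minus strand): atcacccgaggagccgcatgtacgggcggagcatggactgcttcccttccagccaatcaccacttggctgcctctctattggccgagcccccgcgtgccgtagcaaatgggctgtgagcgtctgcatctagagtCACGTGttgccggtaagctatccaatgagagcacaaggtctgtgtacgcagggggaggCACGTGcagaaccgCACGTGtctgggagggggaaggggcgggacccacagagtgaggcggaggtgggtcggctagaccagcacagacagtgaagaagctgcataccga
Nr1d1 (GRCm38.p6, chr11:98775328-98775627, minus strand): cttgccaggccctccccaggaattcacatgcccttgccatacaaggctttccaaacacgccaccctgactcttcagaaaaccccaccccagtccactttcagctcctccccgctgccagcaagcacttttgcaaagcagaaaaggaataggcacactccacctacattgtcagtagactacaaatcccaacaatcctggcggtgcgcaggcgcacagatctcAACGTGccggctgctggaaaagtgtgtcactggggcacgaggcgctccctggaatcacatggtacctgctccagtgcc
Per3 (GRCm38.p6, chr4:151044616-151044915, minus strand): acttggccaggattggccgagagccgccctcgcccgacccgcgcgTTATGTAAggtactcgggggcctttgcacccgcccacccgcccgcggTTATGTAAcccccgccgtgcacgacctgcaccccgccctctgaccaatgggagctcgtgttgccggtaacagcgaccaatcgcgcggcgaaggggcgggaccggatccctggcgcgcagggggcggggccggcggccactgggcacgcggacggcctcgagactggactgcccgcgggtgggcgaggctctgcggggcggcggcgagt
Tef (GRCm38.p6, chr15:81802423-81802722, plus strand): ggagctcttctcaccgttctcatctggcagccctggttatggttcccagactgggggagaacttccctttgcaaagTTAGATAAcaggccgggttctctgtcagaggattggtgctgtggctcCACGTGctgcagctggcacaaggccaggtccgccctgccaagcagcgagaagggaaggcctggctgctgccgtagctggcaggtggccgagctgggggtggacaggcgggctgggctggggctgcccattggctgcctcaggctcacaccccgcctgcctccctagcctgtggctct
Arntl (GRCm38.p6, chr7:113207261-113207560, plus strand): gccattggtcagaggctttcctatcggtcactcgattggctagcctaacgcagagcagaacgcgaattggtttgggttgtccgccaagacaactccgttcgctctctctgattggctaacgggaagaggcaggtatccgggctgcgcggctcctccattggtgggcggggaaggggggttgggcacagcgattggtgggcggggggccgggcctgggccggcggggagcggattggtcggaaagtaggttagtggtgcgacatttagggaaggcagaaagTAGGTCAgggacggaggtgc
The Ciart entry held the E-box CACGTG 3 times, beginning at −116, −58 and −44 from the start. The Nr1d1 entry held the E'-box CACGTT, read on the other strand, at −28. Per3 held the D-box TTANNTAA at −205 and −158, and the upstream Tef entry held a D-box at −174 and an E-box at −127. The Arntl entry held TAGGTCA, the core bound by ROR and REV-ERB receptors, 31 bases into the transcript. Of all 32851 promoters in the table, 7.15% held CACGTG, 4.68% CACGTT, 6.0% TTANNTAA and 2.61% TAGGTCA. The short cyclic AMP element TGACG, present in 20.8% of all promoters, was found among the members only in the 2 entries of Per1, 1 of which also held an E-box. No searched letters were found in the entries of Dbp, Nr1d2 or Clock. CACGTG and TTANNTAA read the same on both strands, and no matched motifs overlapped in these entries.

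Sequencing depth was high for every mouse, with 25881295 to 63547098 counts per library (median 53384170). Cnih3 was lower over all KO than all WT mice (log2 fold change −0.34, SE 0.08, limma FDR = 0.0069), with mean levels of 5.00 and 5.32 log2 CPM (CPM is the count scaled to the library total). FDR is the p-value adjusted over all genes tested, and a gene was called where it was under 0.05. Single mice overlapped, from 4.43 to 5.58 in KO and from 4.43 to 5.97 in WT, and gene counts include exons outside the deleted one, so this is a partial check of the labels. Marker lists for 12 tissues, cell types and response programs were detected in every group, with only 4 of the 6 pituitary genes passing the filter on low counts. A summed level by itself does not show that cells of that tissue were present. The summed level of 9 choroid plexus genes ranged from 27.7 to 674.0 CPM in KO diestrus and from 29.1 to 2090.0 in KO males. In tissue RNA, fewer cells of a type and less RNA per cell cannot be told apart. The fit weighted each library by its quality, from 0.19 for WT proestrus mouse 8_2 to 2.35 for a KO male. Fold changes are weighted in this way and can differ from the differences between unweighted group means. In KO diestrus the 4 mice under 14 weeks had weights of 1.61 to 1.74, and the 2 older mice 0.43 and 0.51. In WT diestrus the weights were 0.76 to 1.14 in the mice under 14 weeks and 0.33, 0.49 and 0.93 in the older mice.

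Levels of the 10 genes were compared with each other per kilobase of exon. Nr1d1 was the highest, at 5.04 ± 0.24 log2 CPM per kilobase (mean ± SD, n = 55), followed by Tef at 4.64 ± 0.17 and Ciart at 4.0 ± 0.41. Nr1d2 came next at 3.05 ± 0.22, then Per1 at 2.31 ± 0.25, Per3 at 2.25 ± 0.3, Clock at 1.96 ± 0.18, Arntl at 1.72 ± 0.32 and Per2 at 1.55 ± 0.34. Neighbours from Per1 down to Per2 lay closer together than the larger SD of each pair. Dbp was the lowest at 0.65 ± 0.27, with only 95 to 323 counts per library. Dbp (chr7:45705088-45710203, plus strand) shares 18.0% of its exon bases with Sphk2 on the opposite strand, and Nr1d1 (chr11:98767932-98775333, minus strand) shares 8.5% with Thra. The authors counted only unambiguous reads, and whether strand was used is not given in the sources used here, so the levels of Dbp and Nr1d1 are uncertain in that part of their exons. The shares for Arntl and Tef were 0.4% and 2.5%, and the other 6 genes shared no exon bases.

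At the transcript level most genes had 1 leading form among those listed. Per2-201 carried 100.0% of the estimated Per2 transcript counts on average, Nr1d1-201 99.8%, Nr1d2-201 99.7%, Clock-205 95.3%, Ciart-201 93.0% and Tef-202 91.9%. The leading form listed for Per3 was Per3-204, a processed transcript, with 95.9%, and that for Dbp was Dbp-204 with 66.9% ± 10.9 (SD, n = 55). Arntl was divided between Arntl-201 with 61.3% ± 25.2 and Arntl-203 with 34.4% ± 25.5, and the share of Per1-203 ran from 0.0 to 93.4% between mice, so the estimated split between forms of these 2 genes differed widely from library to library.

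**Figure D1:**
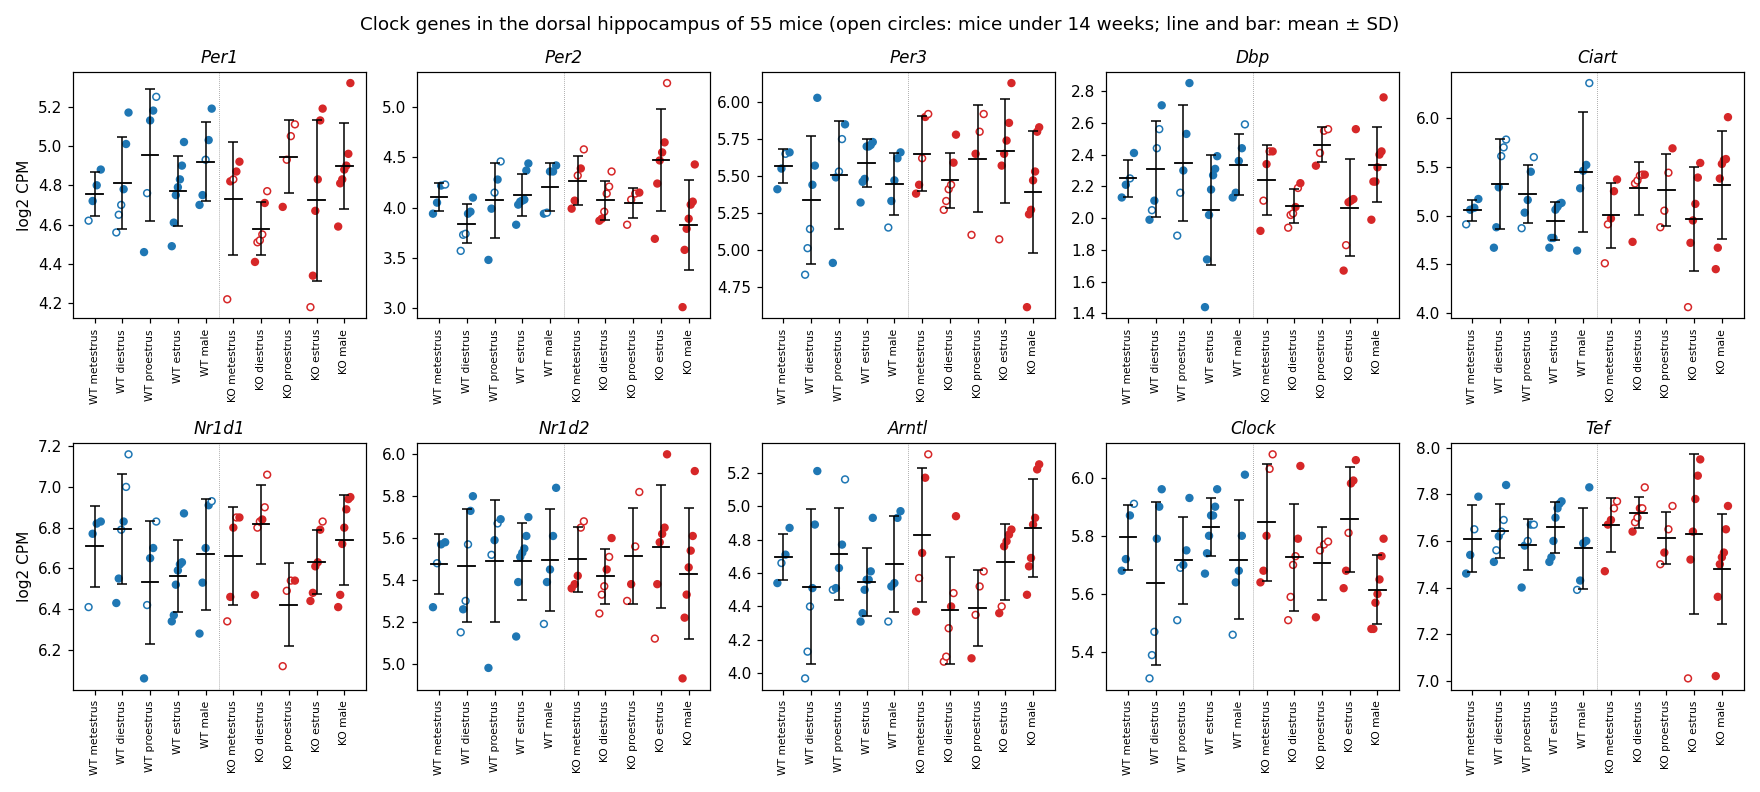
Level of each clock gene in each of the 55 mice (points, log2 CPM on the vertical axis) by genotype and stage, WT in blue and KO in red, open circles for mice under 14 weeks, with the group mean and SD in black. Group means of a gene span 0.14 (Nr1d2) to 0.64 (Per2) log2 units, and the mice of most groups overlap.

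Group means of single genes lay close together. The period genes, whose proteins repress CLOCK and BMAL1, spanned 0.33 to 0.64 log2 units between their lowest and highest group. Per1 was lowest in KO diestrus (4.58 ± 0.14 log2 CPM, SD, n = 6) and highest in WT proestrus (4.95 ± 0.34, n = 5). Per2 was lowest in KO males (3.83 ± 0.45, n = 7) and highest in KO estrus (4.47 ± 0.51, n = 6), the widest span of the 10 genes. Per3 ran from 5.34 ± 0.43 in WT diestrus (n = 6) to 5.67 ± 0.35 in KO estrus (n = 6).

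Of the repressors of the companion loop, Nr1d1 was lowest in KO proestrus (6.42 ± 0.2, n = 4) and highest in KO diestrus (6.82 ± 0.19, n = 6). Nr1d2 had the narrowest span, from 5.42 ± 0.13 in KO diestrus (n = 6) to 5.56 ± 0.29 in KO estrus (n = 6). Ciart ran from 4.95 ± 0.2 in WT estrus (n = 7) to 5.45 ± 0.62 in WT males (n = 5), which held both a mouse at 4.64 and the highest of all 55 at 6.36.

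The activators Arntl and Clock had their lowest means in KO diestrus (4.38 ± 0.32, n = 6) and in KO males (5.61 ± 0.12, n = 7), and their highest in KO males (4.87 ± 0.29, n = 7) and in KO estrus (5.86 ± 0.18, n = 6). Of the D-box binding activators, Dbp ran from 2.05 ± 0.35 in WT estrus (n = 7) to 2.46 ± 0.11 in KO proestrus (n = 4), and Tef from 7.48 ± 0.24 in KO males (n = 7) to 7.72 ± 0.06 in KO diestrus (n = 6). Neighbours in the order of the 10 group means lay closer together than the larger of their 2 SDs at all 9 steps for each gene but Per2, where this held at 8 of 9.

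Over the 10 groups, 5 of the 10 clock genes differed by limma's F test, against 61.6% of all genes tested. Arntl had an FDR of 0.0003, Per2 of 0.0029, Per3 of 0.0053, Clock of 0.0067 and Nr1d1 of 0.0077. The other 5 did not pass, with FDRs of 0.068 for Dbp, 0.069 for Ciart, 0.080 for Tef, 0.085 for Per1 and 0.31 for Nr1d2. Within WT, 2 genes (Per3 and Clock) differed over the 4 stages, against 31.5% of all genes. Within KO, 4 genes (Per3, Dbp, Nr1d1 and Arntl) differed, against 36.7% of all genes. In no clock gene did the stage differences depend on genotype, where 0% of all genes were called, 1 clock gene had an unadjusted p under 0.05, and neither edgeR nor DESeq2 called a gene. These shares of the clock genes lay near or below those of all genes. Without the quality weights, limma called 0 clock genes and 1228 genes in all over the 10 groups, edgeR's quasi-likelihood test called 0 and 788, and DESeq2 called 1 and 1861.

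**Figure D2:**
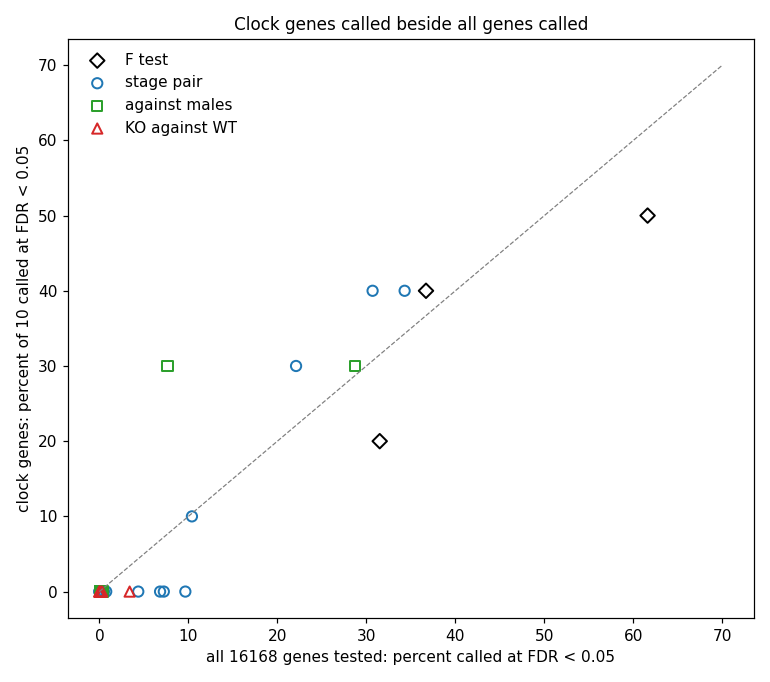
Percent of the 10 clock genes called at FDR < 0.05 (vertical) against the percent of all 16168 genes called (horizontal) in 3 F tests and 26 comparisons of groups, with a dashed line where the percentages are equal. Points lie on both sides of the line, from 0 to 40 percent of clock genes in comparisons of groups with 0 to 34.3 percent of all genes, and the point farthest above it is KO estrus against KO males at 30 and 7.66 percent.

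In WT, clock genes were called between diestrus and estrus, the stage pair with the most genes called (22.1% of all genes). Per3 was lower in diestrus by limma (log2 fold change −0.38, SE 0.14, FDR = 0.0446), as was Clock (−0.27, SE 0.09, FDR = 0.0277), and Nr1d1 was higher (0.30, SE 0.11, FDR = 0.0467). Per3 was 4.83, 5.01, 5.14, 5.44, 5.57 and 6.03 log2 CPM in the 6 diestrus mice and had a lowest, median and highest value of 5.32, 5.7 and 5.73 in the 7 estrus mice. Of the diestrus mice, 3 were below all estrus mice and 1 was above them all. Clock was 5.31, 5.39, 5.47, 5.79, 5.9 and 5.96 in diestrus and 5.67 to 5.96 in estrus, again with 3 diestrus mice below all others. Nr1d1 was 6.43 to 7.16 in diestrus and 6.34 to 6.87 in estrus, with 2 diestrus mice above all estrus mice. The 3 calls were lost without the quality weights. They also turned on single mice: without WT diestrus mouse 548, 549 or 569 in turn, 0 clock gene calls were made in the 6 WT stage pairs, and without each of the other 3 diestrus mice in turn there were 13, 13 and 15. How many of all genes were called in these fits was not counted.

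No clock gene was called in the other 5 WT stage pairs, where the shares of all genes called were 7.24% (metestrus and diestrus), 0.767% (metestrus and proestrus), 0% (metestrus and estrus), 9.66% (diestrus and proestrus) and 6.82% (proestrus and estrus). At an unadjusted p under 0.05, limma gave 2, 0, 0, 3 and 0 clock genes in these pairs.

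In KO, clock genes were called in the 3 stage pairs with diestrus, which share the 6 diestrus mice. Against KO proestrus, Per1 (log2 fold change −0.39, SE 0.13, FDR = 0.0146), Per3 (−0.35, SE 0.14, FDR = 0.0437) and Dbp (−0.45, SE 0.14, FDR = 0.0126) were lower in diestrus and Nr1d1 was higher (0.39, SE 0.11, FDR = 0.0056), 4 of 10 genes against 34.3% of all genes. Dbp was 1.94, 2.02, 2.03, 2.07, 2.19 and 2.22 log2 CPM in diestrus and 2.33, 2.41, 2.55 and 2.56 in proestrus, the only one of the 18 called differences in which the mice of the 2 groups did not overlap. The share of all genes without overlap in these comparisons was not counted, so whether Dbp stands out is not known. The Dbp difference rests on few reads, 196 to 244 per diestrus library and 159 to 323 per proestrus library. Per1 was 4.41 to 4.77 in diestrus and 4.69, 4.93, 5.05 and 5.11 in proestrus, so 3 of the 4 proestrus mice were above all diestrus mice. Nr1d1 was 6.47, 6.8, 6.83, 6.84, 6.9 and 7.06 in diestrus and 6.12, 6.49, 6.54 and 6.54 in proestrus, so 5 of the 6 diestrus mice were above all proestrus mice. The summed level of 8 immediate early genes, which report recent neuronal activity, was 332.0 to 615.0 CPM in diestrus and 531.0 to 672.0 in proestrus, and its part in the Per1 difference was not tested.

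Against KO estrus, Per3 (log2 fold change −0.40, SE 0.13, FDR = 0.0180), Arntl (−0.45, SE 0.14, FDR = 0.0156) and Clock (−0.23, SE 0.08, FDR = 0.0296) were lower in diestrus and Nr1d1 was higher (0.28, SE 0.11, FDR = 0.0416), against 30.7% of all genes. Unweighted means in diestrus and estrus lay closer together, at 5.47 and 5.67 for Per3 and 4.38 and 4.67 for Arntl. They were 5.73 and 5.86 for Clock and 6.82 and 6.63 for Nr1d1. Arntl was 4.07, 4.1, 4.27, 4.4, 4.48 and 4.94 in diestrus and 4.36, 4.4, 4.76, 4.79, 4.83 and 4.86 in estrus. The highest Arntl value of the 12 mice belonged to a diestrus mouse, the oldest, and the next 4 to estrus mice. Against KO metestrus, Arntl alone was called (0.61 higher in metestrus, SE 0.14, FDR = 0.0041), against 10.4% of all genes, and was 4.37, 4.57, 4.72, 5.17 and 5.31 in the 5 metestrus mice. The 9 calls in KO stage pairs became 0 without quality weights, by edgeR, without the filter and with title format as a covariate. Format turned the sign of Nr1d1, Arntl and Clock against estrus, and summed transcript counts that of Per1 against proestrus. The KO pairs without diestrus gave no call in the clock genes, with 4.37% of all genes called for metestrus against proestrus, 0% for metestrus against estrus and 0.507% for proestrus against estrus. In the last pair Dbp was 0.46 higher in proestrus (SE 0.15) and missed the threshold at FDR = 0.10.

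**Figure D3:**
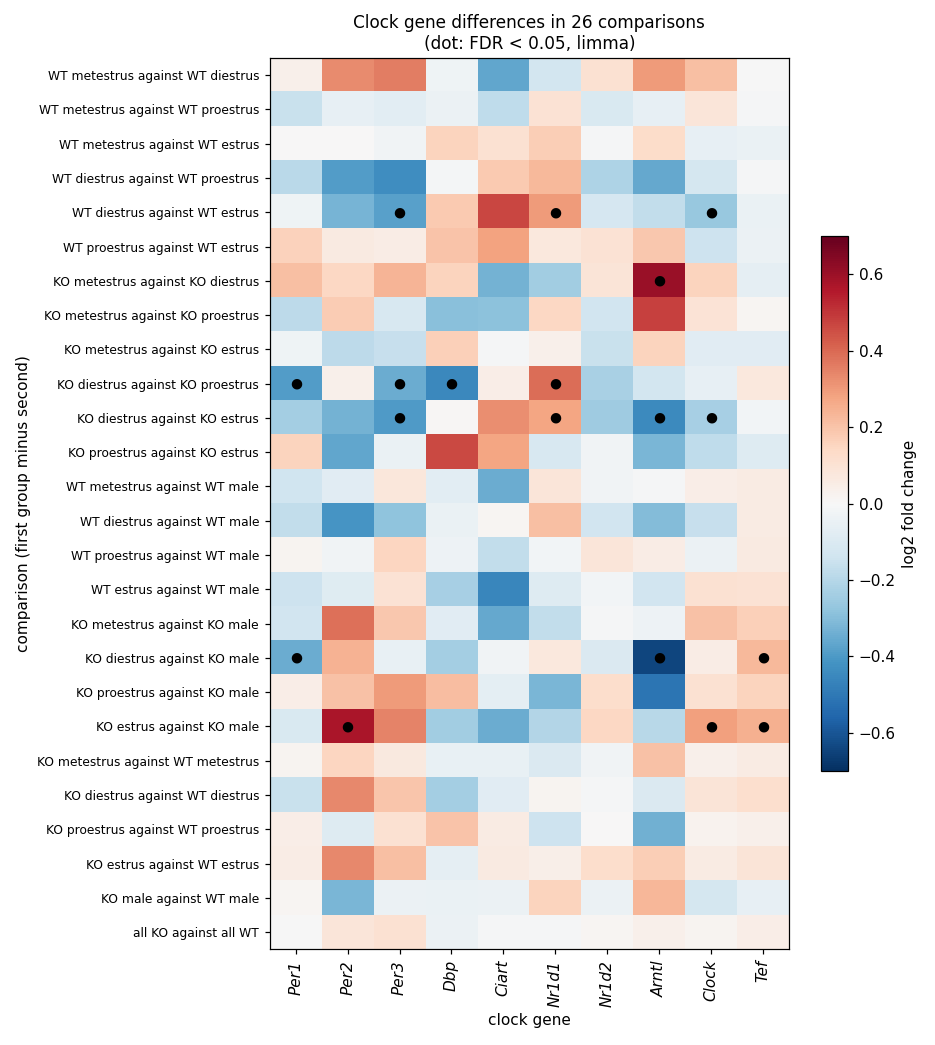
Log2 fold change (colour) of each clock gene, columns, in the 26 comparisons of groups, rows, as the first group minus the second, with a dot where limma's FDR was under 0.05. Of the 18 dots, 15 lie in comparisons with diestrus mice and 3 in KO estrus against KO males. Diestrus comparisons with dots had 34.3, 30.7, 28.7, 22.1 and 10.4 percent of all genes called, and KO estrus against KO males 7.66 percent. Comparisons without dots had at most 9.66 percent.

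Among the comparisons with males, clock genes were called in 6 of 40 combinations of gene and comparison in KO, beside 9.25% over all genes. In WT they were called in 0 of 40, beside 0.0448% over all genes. The difference between genotypes was not tested. With title format as a covariate there were 10 calls in WT, and with only the diestrus mice under 14 weeks there were 5. Calls of all genes in these fits were not counted. KO diestrus differed from KO males in Arntl (log2 fold change −0.64, SE 0.13, FDR = 0.0002), Per1 (−0.34, SE 0.11, FDR = 0.0169) and Tef (0.23, SE 0.07, FDR = 0.0163), 3 of 10 genes against 28.7% of all genes. Arntl was 4.47, 4.64, 4.69, 4.89, 4.93, 5.22 and 5.25 in the 7 males, and the 2 highest were above all diestrus mice. Per1 was 4.59 to 5.32 in males, where 6 of 7 were above all diestrus mice. Tef was 7.64 to 7.83 in diestrus and 7.02 to 7.75 in males, with 1 diestrus mouse above all males. The summed level of 10 mature oligodendrocyte markers was 3180.0 to 5070.0 CPM in KO diestrus and 4860.0 to 5950.0 in KO males, that of 5 microglia markers 98.8 to 131.0 and 127.0 to 162.0, and that of 6 astrocyte markers 1490.0 to 1810.0 and 1140.0 to 1510.0, and their part in the differences was not tested.

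KO estrus differed from KO males in Per2 (log2 fold change 0.57, SE 0.13, FDR = 0.0069), Clock (0.29, SE 0.08, FDR = 0.0241) and Tef (0.25, SE 0.08, FDR = 0.0430), 3 of 10 genes against 7.66% of all genes. Per2 was 3.69, 4.24, 4.47, 4.55, 4.65 and 5.24 in estrus and 3.01, 3.58, 3.79, 3.89, 4.03, 4.06 and 4.43 in males. Of the estrus mice, 4 were above all males, and 1 estrus mouse was below 5 of the 7 males. Clock was 5.62, 5.68, 5.81, 5.98, 5.99 and 6.06 in estrus and 5.48 to 5.79 in males, with 4 estrus mice above all males. Tef was 7.01, 7.52, 7.64, 7.78, 7.88 and 7.95 in estrus and 7.02 to 7.75 in males, so the lowest value of both groups was an estrus mouse. Per2 lost its call without KO estrus mouse 12_3 (0.44, FDR = 0.072) or KO male 2591 (0.47, FDR = 0.053), Clock in 19 and Tef in 30 of the 55 fits with 1 mouse left out, and all 3 without KO male 2591. All 7 KO males and 1 of the 6 KO estrus mice had titles with a single number in place of a two-part number, and with this format as a covariate the Clock difference was −0.07 (FDR = 0.70), so title format and group cannot be told apart there.

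No clock gene was called for KO metestrus (0.359% of all genes) or KO proestrus (0.315%) against KO males, nor for WT metestrus (0.0309%), diestrus (0.068%), proestrus (0.0309%) or estrus (0.0495%) against WT males. Each of these 2 sets of comparisons shares its males. In WT, the difference with the smallest p was Per2 in diestrus against males, −0.41 (SE 0.18, FDR = 0.26).

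Genotype made no difference that passed the test in any clock gene. Of all genes, 0.0247% were called between KO and WT metestrus mice and 0% between KO and WT diestrus mice. The shares for proestrus mice, estrus mice and males were 0.315%, 0.179% and 0.00619%. Unadjusted p-values under 0.05 were found by limma for Per2 in estrus (0.34 higher in KO, SE 0.13, FDR = 0.28) and in diestrus (0.34 higher, SE 0.16, FDR = 0.60) and for Arntl in proestrus (−0.33, SE 0.17, FDR = 0.36), and edgeR and DESeq2 called 0 clock genes. Over all KO and all WT mice, where 3.4% of genes were called, the 10 differences ran from −0.04 for Dbp (SE 0.07) to 0.11 for Per3 (SE 0.06), with FDRs of at least 0.40 and no clock gene at an unadjusted p under 0.05. Per2 was higher in KO than in WT estrus and lower in KO than in WT males, and neither difference passed.

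The 12 diestrus mice were not alike in age. In all, 3 WT and 4 KO diestrus mice were under 14 weeks, and all 7 of these had single-number titles. The division was chosen with earlier results of these data known. In WT, 6 of the 10 clock genes did not overlap between the 3 younger and the 3 older mice, against 44.5% of all genes. Arntl was 3.97, 4.13 and 4.40 log2 CPM in the younger and 4.51, 4.89 and 5.21 in the older mice. Clock was 5.31, 5.39 and 5.47 against 5.79, 5.9 and 5.96, and Per3 was 4.83, 5.01 and 5.14 against 5.44, 5.57 and 6.03. Ciart went the other way, with 5.61, 5.7 and 5.78 in the younger and 4.67, 4.88 and 5.29 in the older mice. Per1 and Per2 were lower in the younger mice, by 0.35 and 0.32 on the log2 scale, also without overlap. Nr1d1 was 6.79, 7.0 and 7.16 against 6.43, 6.55 and 6.83, with overlap. The oligodendrocyte markers summed to 3270.0, 3640.0 and 3700.0 CPM in the younger and 4630.0, 5090.0 and 5720.0 in the older mice. Also lower without overlap were CA1 pyramidal (208.0 to 256.0 against 267.0 to 290.0), dentate granule (121.0 to 144.0 against 157.0 to 210.0) and pituitary markers. Astrocyte (1480.0 to 1680.0 against 1350.0 to 1400.0) and choroid plexus markers were higher without overlap. The other marker lists overlapped, and the part of any list in these differences was not tested. A design of 3 mice against 3 cannot give a two-sided exact permutation p below 0.10.

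In KO diestrus, 3 of 10 clock genes did not overlap between the 4 younger and 2 older mice, against 36.2% of all genes. Clock was 5.51 to 5.73 in the younger and 5.79 and 6.04 in the older mice, and Per3 was 5.27 to 5.44 against 5.59 and 5.78. Both had the direction seen in WT, whereas Per2 was higher in the younger KO mice, at 3.96 to 4.36 against 3.87 and 3.89. Without the 7 younger diestrus mice, none of the 15 called differences that involve diestrus passed. Arntl in KO diestrus against males then fell from −0.64 to −0.27 (FDR = 0.80), and Clock in WT diestrus against estrus moved from −0.27 to 0.03 (FDR = 0.95). Fewer mice were then tested, and age and title format cannot be told apart in WT diestrus, whereas in KO diestrus 1 older mouse, 2592, had a single-number title.

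**Figure D4:**
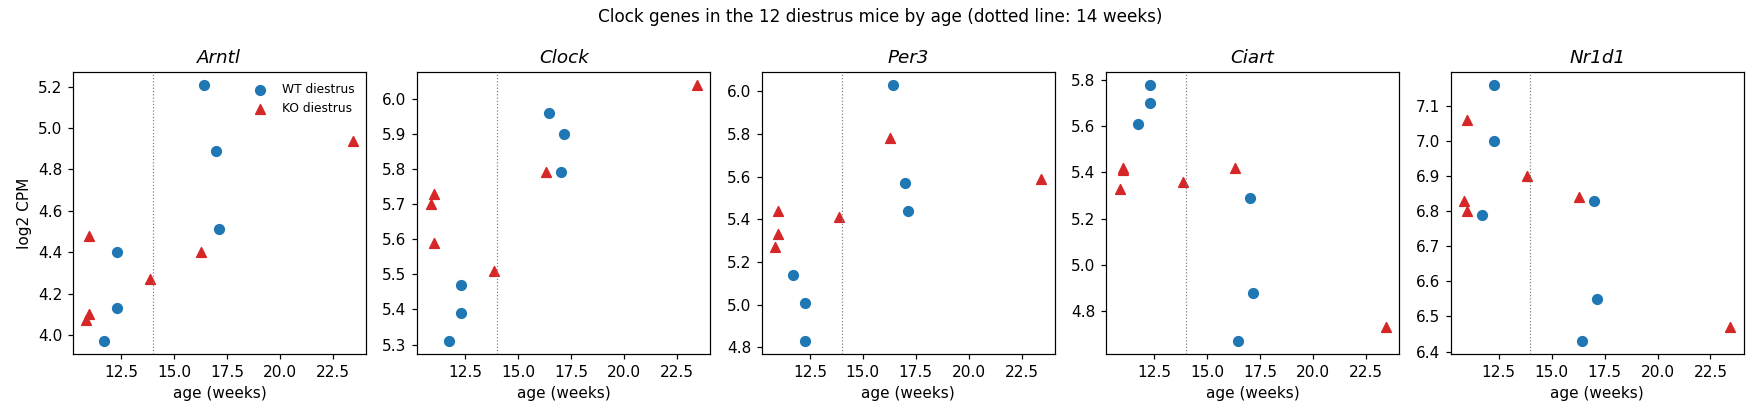
Level (log2 CPM) of 5 clock genes in the 12 diestrus mice against age in weeks, WT as blue circles and KO as red triangles, with a dotted line at 14 weeks. In WT the mice left of the line are all lower in Arntl, Clock and Per3 and all higher in Ciart than those right of it, and in Nr1d1 the 2 sides overlap.

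A list of 25 further genes of the clock pathway was examined with the same fit, and 14 of 25 differed over the 10 groups, near the 61.6% of all genes. The cryptochromes Cry1 (FDR = 0.095) and Cry2 (FDR = 0.13), the partners of the period proteins, did not pass, whereas Npas2, a paralog of Clock, did (FDR = 0.0326). Small FDRs belonged to Arntl2, a paralog of Arntl (2.3e-05), the deacetylase Sirt1 (0.00018), Nono (0.0010), the orphan receptor Rorb (0.0013), the D-box repressor Nfil3 (0.0015) and the kinases Csnk1e (0.0040) and Csnk2a1 (0.0054). Between KO diestrus and KO proestrus 11 of 25 were higher and 3 lower in diestrus, beside 34.3% of all genes called. Between KO diestrus and KO estrus 2 were higher and 5 lower (30.7% of all genes), and between KO diestrus and KO males 5 were higher and 1 lower (28.7%). Between WT diestrus and WT estrus Arntl2 and Sirt1 were lower in diestrus and no other gene of the list was called, beside 22.1% of all genes. No gene of the list was called for WT stages against males or for KO against WT.

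Clock genes varied between mice of the same group by different amounts. The SD within groups was 0.413 log2 units for Ciart, above that of 97.1% of the 1000 genes nearest to it in mean level, and 0.31 for Per3, above 91.9%. Arntl (0.301) stood above 85.3% and Per2 (0.308) above 82.2% of such genes. Clock (0.174) and Tef (0.176) stood above only 35.6% and 38.9%, and Dbp (0.257) above 9.5%, where genes of its low level had a median SD of 0.326.

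Mice with a high level of one clock gene were also high or low in others. With group means removed, 19 of the 45 pairs of clock genes were correlated over 55 mice (permutation of values within groups, adjusted over 45 pairs), 14 positively and 5 negatively. The smallest correlation among them was 0.36 in size, and 27.0% of all pairs among 2021 evenly taken genes were at least this large. All pairs were examined after the data were seen, whereas the pairs with Dbp had been planned. Per3, Nr1d2 and Tef formed the tightest group, with r = 0.78 for Per3 and Nr1d2 (Spearman's rho 0.75, adjusted permutation p = 9e-05, the smallest these permutations and the adjustment gave), r = 0.75 for Nr1d2 and Tef (rho 0.71) and r = 0.74 for Per3 and Tef (rho 0.66). Without the 2 mice farthest from the median, r was 0.8, 0.7 and 0.73, and within the 2 title formats it lay between 0.74 and 0.81 for all 3 pairs.

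The repressors Ciart and Nr1d1 were positively correlated (r = 0.61, rho 0.54, adjusted permutation p = 0.00015) and both were negatively correlated with Clock and Arntl. Nr1d2 went the other way, with r = 0.55 for Arntl (rho 0.53, adjusted permutation p = 0.00032) and 0.36 for Clock (adjusted permutation p = 0.036). It gave r = −0.02 with Nr1d1. The repressor Per3 was also positively correlated with Arntl (r = 0.50, adjusted permutation p = 0.0041). Ciart and Clock gave r = −0.70 (rho −0.71, adjusted permutation p = 9e-05), and r was −0.75 without the 2 farthest mice, −0.5 in the 33 mice with two-part titles and −0.69 in the 19 with single-number titles that shared a group with another such mouse. Nr1d1 and Clock gave r = −0.64 (rho −0.60), Nr1d1 and Arntl r = −0.43 (rho −0.43, adjusted permutation p = 0.016) and Ciart and Arntl r = −0.40 (rho −0.45, adjusted permutation p = 0.021). The last 2 were −0.03 and 0.12 within single-number titles and −0.33 and −0.31 within two-part titles, each smaller in size than over all mice. Arntl and Clock were positively correlated (r = 0.59, rho 0.56, adjusted permutation p = 0.0011), with 0.35 and 0.28 within the 2 formats. Per1 was correlated with Arntl (r = 0.51) and, negatively, with Nr1d1 (r = −0.37, but 0.06 within single-number titles). All 19 pairs kept their sign within each genotype, and 17 within each title format.

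**Figure D5:**
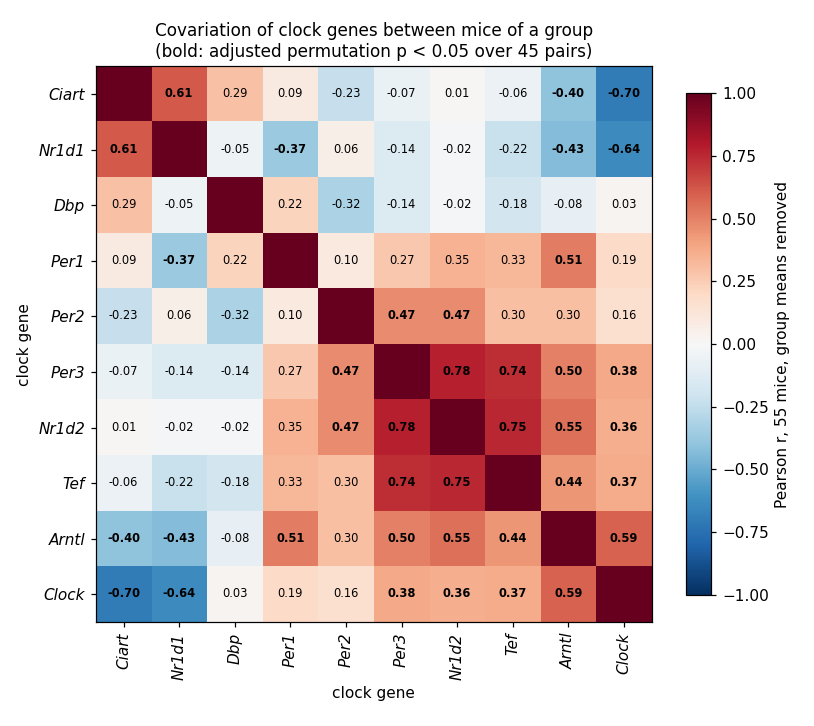
Pearson correlation (colour and number) between each pair of clock genes over 55 mice with group means removed, in bold where the adjusted permutation p over 45 pairs was under 0.05. A block of positive values joins Per2, Per3, Nr1d2, Tef, Arntl and Clock, and Ciart and Nr1d1 are negative with Arntl and Clock.

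No gene was correlated with Dbp, the planned comparison. The largest coefficients were r = −0.32 for Per2 (rho −0.28, adjusted permutation p = 0.22 over 9 genes) and r = 0.29 for Ciart (rho 0.31, adjusted permutation p = 0.22), and Tef, which binds the same DNA element as Dbp, gave r = −0.18 (rho −0.17, adjusted permutation p = 0.58). Dbp also had the fewest reads.

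Much of the covariation ran along the main axis of variation of the whole transcriptome. The first principal component of all genes, with group means removed, held 19.7% of the variance, and over 55 mice it was correlated with Arntl (r = 0.77, rho 0.73), Clock (r = 0.74, rho 0.71), Per3 (r = 0.74, rho 0.77) and Nr1d2 (r = 0.65, rho 0.69), each with an adjusted permutation p of 0.00015 over 60 relations. Tef (r = 0.46), Per2 (r = 0.35), Ciart (r = −0.44) and Nr1d1 (r = −0.41) were correlated with it less strongly, and Per1 and Dbp did not pass. The share of all genes correlated with this component as strongly was not counted, so these values are not particular to clock genes as far as is known. With this component regressed out, 16 of the 19 pairs kept their sign and 7 of them kept a size of 0.36 or more: Per3 with Nr1d2 was 0.58, Nr1d2 with Tef 0.67, Per3 with Tef 0.66, Ciart with Nr1d1 0.52, Ciart with Clock −0.63, Nr1d1 with Clock −0.55 and Per1 with Arntl 0.41. Arntl with Clock fell to 0.04, Nr1d2 with Arntl to 0.11 and Nr1d1 with Arntl to −0.19. Nr1d2 with Clock turned to −0.23 and Per3 with Arntl to −0.18.

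Immediate early genes were correlated with the period genes and Nr1d2 between mice of a group. Their mean level was correlated with Per2 (r = 0.52, rho 0.52, adjusted permutation p = 0.0011), Per3 (r = 0.48, rho 0.45, adjusted permutation p = 0.0081), Per1 (r = 0.47, rho 0.49, adjusted permutation p = 0.0083) and Nr1d2 (r = 0.39, rho 0.39, adjusted permutation p = 0.034) over 55 mice. Without the 2 farthest mice these were 0.57, 0.5, 0.4 and 0.5. Arntl had r = 0.37 and did not pass (adjusted permutation p = 0.075). How many of all genes were correlated this strongly with the immediate early genes was not counted, and the principal component was not regressed out here. For Per1, r was 0.37 among mice with two-part and 0.62 among those with single-number titles. The means removed here were those of whole groups, so differences between formats in a group remained. Per2 was in addition correlated with the share of mitochondrial counts (r = −0.50, rho −0.40, adjusted permutation p = 0.012). No clock gene was correlated with age, library total or choroid plexus level within groups in this family of 60 relations.

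The balance of Nr1d1 and Arntl, a repressor and its target, was taken per mouse as the log2 CPM of Nr1d1 minus that of Arntl, a measure chosen after the data were seen and given without a test. It was 2.03 ± 0.45 over all 55 mice (mean ± SD) and ran from 1.03 in KO metestrus mouse 14_4 to 3.02 in WT diestrus mouse 549. Group means ran from 1.82 ± 0.42 in WT proestrus (n = 5) to 2.44 ± 0.5 in KO diestrus (n = 6), and WT diestrus (2.27 ± 0.67, n = 6) spanned 1.21 to 3.02.

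Some mice stood at the end of the range for several clock genes. KO estrus mouse 12_1 had the lowest Per1 (4.18), Ciart (4.06) and Tef (7.01) and the highest Per2 (5.24) of all 55 mice. Its summed level of 6 astrocyte markers was 3090.0 CPM, against 1970.0 in the next highest mouse, and the part of this in its clock genes was not tested. KO male mouse 2590 had the lowest Per2 (3.01), Per3 (4.61) and Nr1d2 (4.93). WT diestrus mouse 569 had the lowest Arntl (3.97) and Clock (5.31), and KO estrus mouse 12_3 the highest Per3 (6.13) and Tef (7.95).

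Genes most like the mean of the 8 clock genes other than Arntl and Clock were sought among 16133 others, as a description over 55 mice with group means removed. Sec14l1 (r = 0.792), Tob2 (0.716), Rassf2 (0.704), St3gal4 (0.695) and Bcar3 (0.691) were the highest. Rnf182 (−0.715), Snrpert (−0.706), Gm6807 (−0.702), Polr2k (−0.701) and Gm13430 (−0.697) were the lowest. Among the 8 genes that make up the mean, Nr1d2 (r = 0.828), Per3 (0.725) and Tef (0.663) were the closest to it and Nr1d1 (0.218) and Dbp (0.201) the farthest.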

How the data were processed

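The authors aligned reads to GRCm38 (Ensembl 101) with STAR 2.7.9a and made gene counts of unique, unambiguous reads with featureCounts 2.0.3. They also deposited estimated counts per transcript from Salmon 1.5.2 (processing notes), and a table of log2 CPM, with which the log2 CPM computed here agreed to 5e-14 over 16164 genes. The authors' CPM tables were not used, nor was 1 column of counts with no mouse.

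Repeated lines (55774 lines, 55487 genes) were merged. Testing was limited to genes that exceeded 1 CPM in 10 or more libraries, less 5 genes for ribosomal RNA. TMM scaling, voom with quality weights and 1 model of 10 group means were fitted in limma 3.58.1 (edgeR 4.0.16, R 4.3.3), with FDR by Benjamini-Hochberg within each comparison and a threshold of 0.05. DESeq2 1.42.0 and edgeR served as alternatives. Both, and limma with quality weights with and without a replicate block, were tested on simulated data. The other settings were not. Estimated counts were rounded. SDs and correlations used log2 CPM, and permutations (100000, two-sided) stayed within groups, in Python 3.11.15. Exon lengths and positions came from GENCODE M21. No 2 libraries agreed within sampling noise. The precision of a level is set by its counts (95 to 323 for Dbp, 4621 to 13681 for Tef) and by the spread between mice.

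The members, the pathway list, the marker lists and the rule for named genes (all 10 members, the 8 list genes with the smallest FDR plus Cry1, Cry2 and Npas2, the 5 genes most and least like the members, and Cnih3) were chosen with earlier results of these data known. The result of 1 gene that the rule names is not reported here. Alternatives are given in the closing section.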

Additional observations from a re-analysis of the deposited data

Results flagged for a closer look

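In 100 combinations of clock gene and group, 6 held a mouse far from the rest of its group by Dixon's ratio of gap to range at the 95% level, where chance flags about 1 in 20. Per1 was 4.22 log2 CPM in KO metestrus mouse 11_1, and the other 4 mice were at 4.82 to 4.92. Ciart was 4.73 in KO diestrus mouse 7_1, the oldest of that group, and the other 5 mice were at 5.33 to 5.42. Nr1d1 was 6.41 in WT metestrus mouse 13_1 beside 6.77 to 6.83, and 6.12 in KO proestrus mouse 14_2 beside 6.49 to 6.54. Nr1d2 was 4.98 in WT proestrus mouse 8_2, the library with the lowest quality weight, beside 5.52 to 5.69. Clock was 5.52 in KO proestrus mouse 14_1 beside 5.75 to 5.78. All 6 were low values.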

How the results depend on the processing

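The first number of two-part titles recurred across groups for 8 numbers (26 mice), and what it marks is not given in the sources used here. Mice of different groups that shared it did not deviate together (median correlation of their deviations from group means 0.01, from −0.29 to 0.44, over 26 pairs). With this number as a replicate block, chosen after seeing the data, limma estimated a correlation of −0.002 within blocks and every count and call was as without the block, with 5 clock genes called over the 10 groups. The genotype by stage test, KO against WT in 5 conditions, all KO against all WT and covariation with Dbp gave 0 clock genes in every alternative run and with any 1 mouse left out. The other counts moved. The 5 clock genes called over the 10 groups became 0 by edgeR and without quality weights, 1 by DESeq2 and without diestrus mice under 14 weeks, 3 without the filter and with title format as a covariate, 6 with only the younger diestrus mice and 7 with choroid plexus as a covariate. Of all genes, 9963 were called in the fit reported above, 10975 with only the younger diestrus mice and 9746 with choroid plexus. The totals were 8500 with format, 8315 without the filter and 2432 without the younger diestrus mice. For stage pairs and stages against males, calls of all genes were not counted in the alternatives. The 2 called over WT stages became 0 by edgeR, by DESeq2, without weights, without the filter, with age or format as a covariate, without the younger diestrus mice and from summed transcript counts, 1 with choroid plexus as a covariate, and 6 with only the younger diestrus mice. The 4 over KO stages became 0 in each setting that gave 0 for WT stages, except age (3) and summed transcripts (2). The 3 calls in WT stage pairs became 0 in those same settings, 1 with choroid plexus and 17 with only the younger diestrus mice, and the 9 in KO pairs became 0 by edgeR, without weights, without the filter, with format and without the younger mice, 1 by DESeq2, 5 with age and 3 from summed transcripts. The 6 calls of KO stages against males became 1 by edgeR, 2 by DESeq2, without weights, without the filter, with age or without the younger mice, and 3 from summed transcripts. The 0 calls of WT stages against males became 10 with format and 5 with only the younger diestrus mice. The 14 pathway genes became 0 by edgeR, DESeq2 and without weights, 7 without the filter and 3 without the younger mice. With 1 mouse left out these counts ranged from 4 to 8 over the 10 groups, 0 to 6 over WT stages, 1 to 6 over KO stages, 0 to 15 in WT pairs, 4 to 12 in KO pairs, 0 to 1 for WT against males, 2 to 7 for KO against males (2 without mouse 2591) and 13 to 17 for the pathway list. Arntl in KO metestrus against diestrus, Nr1d1 in KO diestrus against proestrus, and Per1 and Arntl in KO diestrus against males passed whichever mouse was left out. With format as a covariate the sign turned for Clock in WT diestrus against estrus (0.0074), for Nr1d1 (−0.0207), Arntl (0.0046) and Clock (0.0915) in KO diestrus against estrus, and for Clock in KO estrus against males (−0.0672). Without the younger diestrus mice it turned for Per3 (0.0148) and Clock (0.0324) in WT and Clock (0.0071) in KO diestrus against estrus. From summed transcripts it turned for Per1 in KO diestrus against proestrus (0.2671), where the listed forms held a median of 280.0 estimated counts against 1350 gene counts. The causes were not tested. The principal component and the 45 pairs were alternatives chosen after seeing the data.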
